A study of Mus musculus with 54 samples.

Results

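Nuclei of mouse kidney prepared over a sucrose cushion (SN_sucrose) were compared with nuclei washed 3 times at 500g and sorted (SN_FANS_3x500g). The comparison took the 3 libraries of each protocol from kidneys of Balb/c mice aged 15 weeks, which are 6 of the 54 libraries of the series. They hold 24853 SN_sucrose and 23256 SN_FANS_3x500g nuclei. All mice were untreated wild-type females that had been used as breeders, whole kidneys had been flash-frozen, and the 3 libraries of a protocol came from kidneys of different mice. For SN_FANS_3x500g the kidney was homogenized in lysis buffer with detergent, passed through a 40 µm strainer, spun at 500g and washed in 3 rounds, and 100000 events stained with the DNA dye DAPI were sorted. For SN_sucrose DNase I was in the lysis buffer, lysis took 12 min, the homogenate passed a 30 µm strainer and was spun at 2000g, and the pellet, mixed with 1.8 M sucrose, was spun at 3000g through 1.3 M sucrose without any sort. The 3 SN_FANS_1x2000g libraries, of the same kind of mice, are given beside them as values only: by the study's methods they share the homogenization and the 2000g spin with SN_sucrose, and the sort with SN_FANS_3x500g. The study's sources differ on the first spin of SN_sucrose, which is 2000g in the methods and 500g elsewhere. The sources used here do not say whether libraries of different protocols share a mouse, so protocol, animals and day of preparation cannot be told apart, and every difference below is one between these sets of libraries.

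A nucleus holds newly made transcripts that still carry introns, together with RNAs that stay in the nucleus, and a preparation of nuclei also carries mature mRNA from broken cells, either stuck to nuclei or free in the suspension. The nephron, the tubule that makes urine, runs from the filter built by podocytes through the proximal tubule, which takes back most of the filtrate, the loop of Henle with its thick ascending limb, the distal convoluted tubule and the connecting tubule to the collecting duct. Around it lie capillary endothelium, mural cells, fibroblasts and leukocytes. Immediate-early genes such as *Fos* are switched on within minutes of a stimulus, before any new protein has been made.

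The libraries held 26142380 to 30416400 unique molecular identifiers (UMIs, 1 per captured transcript), with 6971 to 9308 nuclei each. The median UMIs per nucleus were 3274, 3893.5 and 3782 in the SN_FANS_3x500g libraries and 3475, 3108.5 and 3393 in the SN_sucrose libraries, which overlapped (exact two-sided permutation test, p = 0.3). Once each nucleus was thinned to 900 UMIs, a median of 632, 649 and 639 genes was seen per SN_FANS_3x500g nucleus and of 616, 615 and 616 per SN_sucrose nucleus. All SN_sucrose libraries lay below all SN_FANS_3x500g libraries (exact two-sided permutation test, p = 0.1, the smallest that 3 against 3 can give). Of 48109 barcodes in the 6 libraries, 254 occurred in more than 1 of them. No library stood apart in depth, and no 2 replicates were near-identical.

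Nuclei were clustered and named by marker genes, and each class name below stands for nuclei like that cell type. Of the 15 classes, 6 were a smaller share of the SN_sucrose libraries and 3 a larger share. Macula densa nuclei, from the salt-sensing plaque beside the glomerulus, were 2.21-fold and urothelial nuclei, from the lining of the renal pelvis, 2.58-fold less frequent. Macrophage nuclei were 1.9-fold and fibroblast nuclei 1.8-fold more frequent, while the proximal tubule had nearly the same share in both.

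The macula densa made up 0.739, 0.616 and 0.846% of the SN_FANS_3x500g nuclei and 0.376, 0.312 and 0.304% of the SN_sucrose nuclei, with no overlap (log2 fold change -1.15 ± 0.18 (SE), adjusted p = 0.0022, edgeR's quasi-likelihood test on numbers of nuclei). Urothelial nuclei were 0.797, 0.669 and 1.19% against 0.326, 0.269 and 0.437% (-1.37 ± 0.27, adjusted p = 0.0039), and 1.16, 0.887 and 1.34% in the SN_FANS_1x2000g libraries. The macula densa was 0.467, 0.547 and 0.428% in the SN_FANS_1x2000g libraries. When names were given nucleus by nucleus, from the highest marker score, urothelial nuclei were called more frequent in SN_sucrose (log2 fold change 0.82, adjusted p = 0.0055), the opposite direction, and the macula densa difference shrank to -0.24 and was no longer called (adjusted p = 0.15). The summed level of the 5 urothelial markers over all nuclei was also higher in SN_sucrose, at 25.2 to 30.4 against 15.5 to 18.8 UMIs per 1000000 UMIs of a library (CPM). That of the 5 macula densa markers overlapped, at 14.9 to 20.9 CPM in SN_sucrose against 16.4 to 22.4 CPM in SN_FANS_3x500g. Of these 5, 2 were called lower and 1 higher, beside 21.4% and 23.9% of all genes. Within a class, CPM refers to the UMIs of that class in a library.

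The other 4 called nephron classes were less frequent in SN_sucrose by smaller amounts. The thick ascending limb, which reabsorbs salt and dilutes the urine, was 17.8, 16.1 and 15.6% in SN_FANS_3x500g and 12.5, 12.7 and 12.9% in SN_sucrose (-0.37 ± 0.098, adjusted p = 0.018). The distal convoluted tubule was 5.45, 5.27 and 5.47% against 3.94, 4.62 and 3.96% (-0.37 ± 0.11, adjusted p = 0.024), and collecting duct principal nuclei 4.23, 4.29 and 4.12% against 3.42, 3 and 3.47% (-0.36 ± 0.11, adjusted p = 0.024). In these 3 classes the groups did not overlap. Thin limb nuclei (-0.51 ± 0.17, adjusted p = 0.033) were 2.61, 2.03 and 2.08% against 1.28, 1.58 and 1.89%, also without overlap. In SN_FANS_1x2000g the mean shares were 12.8% for the thick ascending limb, 4.54% for the distal convoluted tubule, 3.69% for principal and 1.96% for thin limb nuclei. With names given nucleus by nucleus, the calls of principal (-0.059, adjusted p = 0.59) and thin limb nuclei (-0.21, adjusted p = 0.24) were lost, and that of the thin limb was also lost when clustering left out the genes that differed between the protocols (-0.46, adjusted p = 0.061). Without SN_sucrose replicate 1 none of these 4 passed the threshold, and the calls of principal, distal convoluted tubule and thin limb nuclei were also lost without SN_FANS_3x500g replicate 2, SN_sucrose replicate 3 and SN_sucrose replicate 2, respectively. Over all nuclei, summed markers were lower in SN_sucrose for the thick ascending limb (6617 to 7030 against 4291 to 5140 CPM) and distal convoluted tubule (5843 to 5909 against 3168 to 3661 CPM). Those of principal nuclei (366 to 427 against 413 to 508 CPM) and the thin limb (110 to 144 against 128 to 147 CPM) overlapped and were not lower. A cluster with markers of both principal and connecting tubule nuclei stayed unnamed and is described below.

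Endothelial nuclei were 6.28, 9.81 and 9.84% of the SN_FANS_3x500g and 12.7, 11 and 11.9% of the SN_sucrose nuclei (0.46 ± 0.17, adjusted p = 0.049), fibroblast nuclei 1.29, 3.2 and 2.15% against 3.78, 4.11 and 4.02% (0.85 ± 0.27, adjusted p = 0.027), and macrophage nuclei 0.647, 0.839 and 0.602% against 1.42, 1.24 and 1.32% (0.92 ± 0.16, adjusted p = 0.0022). In SN_FANS_1x2000g the mean shares were 12.5% for endothelial, 3.27% for fibroblast and 1.07% for macrophage nuclei. SN_FANS_3x500g replicate 1 held the fewest endothelial and fibroblast nuclei. Both of these calls were lost whenever any 1 SN_sucrose library was left out. The macrophage class was named by genes of which 7 of 9 were themselves higher in its SN_sucrose nuclei (2.12% of all genes tested in that class). In a clustering without the genes that differed between the protocols, macrophage nuclei were 1.77% ± 0.60 (SD, n = 3) against 2.11% ± 0.34 (SD, n = 3), a log2 fold change of 0.24 (adjusted p = 0.46), and the endothelial change was 0.47 (adjusted p = 0.061), while fibroblasts (0.70) kept their call.

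Proximal tubule nuclei were 41.3, 41.5 and 43.4% and 42.9, 44.3 and 39.4% of the 2 sets of libraries, with a log2 fold change of 0.00 ± 0.096 (SE). Connecting tubule, type A and type B intercalated, mural and podocyte nuclei did not pass the threshold, with log2 fold changes from -0.55 ± 0.28 (podocytes) to 0.25 ± 0.16 (mural and mesangial nuclei). The latter was 0.13 without SN_sucrose replicate 3. Podocytes passed it without SN_FANS_3x500g replicate 2 (-0.67) or 3 (-0.76). Nuclei without a class name made up 9.70, 7.96 and 7.49% of the SN_FANS_3x500g and 10.1, 9.25 and 12.1% of the SN_sucrose libraries. Among them, a cluster with few UMIs held 0.081, 0.092 and 0.014% against 0.80, 0.13 and 2.47%. Limits set after the clusters were seen left 3 further clusters unnamed. One, with markers of the connecting tubule (*Egfem1*, *Trpv5*) and of principal nuclei (*Scnn1b*, *Scnn1g*, *Hsd11b2*) among its top genes, held 1.57, 1.32 and 1.41% against 1.92, 1.72 and 2.01%. How far the lower share of principal nuclei depends on leaving this cluster unnamed was not tested. The larger of 2 near the endothelium held 0.68, 1.40 and 0.98% against 1.59, 1.59 and 1.75%, and the smaller one at most 0.066% of any of these libraries.

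**Figure D1:**
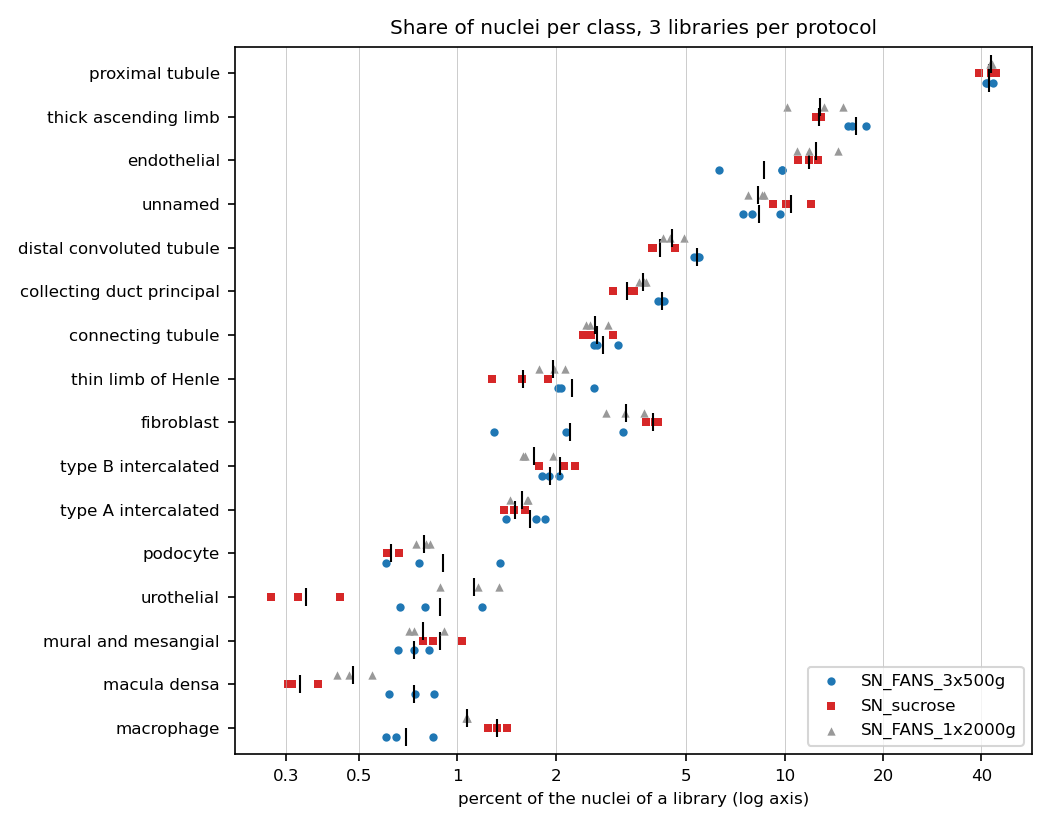
Share of nuclei per class in percent of a library, on a log axis, for each of 9 libraries (points, 3 per protocol) with the mean of each protocol (black bars). The SN_sucrose libraries lie below the SN_FANS_3x500g libraries for the macula densa and the urothelium and above them for macrophages and fibroblasts, and the proximal tubule shares of the protocols lie together.

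Summed over all nuclei of a library, 17304 genes were tested and 4144 were higher and 3703 lower in SN_sucrose (adjusted p under 0.05, edgeR's quasi-likelihood test), so that 45.3% of all genes were called, 23.9% higher and 21.4% lower. Differences of at least 2-fold were less even, with 688 genes (3.98%) higher and 145 (0.838%) lower. In 55.8% of the genes the groups did not overlap. The median log2 fold change of all genes was 0.03. In such sums, more nuclei of a type and more RNA of a gene per nucleus cannot be told apart, so the values by class are given further on.

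The 10 largest rises among genes with a mean of at least 20 CPM in either group were those of *Trim5*, described further on, *Cst3*, a secreted protease inhibitor, *H2-Eb1*, *H2-Aa*, *H2-Ab1* and *Cd74*, which serve antigen presentation on MHC class II, *Mgp*, an inhibitor of calcification made by vascular and stromal cells, *Ifitm3*, an antiviral membrane protein, and *Ly6c1* and *Ctla2a*, of which the former is an endothelial and leukocyte surface protein. *H2-Eb1* was at 4.25, 9.14 and 3.67 CPM in the SN_FANS_3x500g libraries, 45.8, 56.5 and 39.7 CPM in the SN_sucrose libraries and 25.7, 32.2 and 23.4 CPM in the SN_FANS_1x2000g libraries. It was thus 8.32-fold higher in SN_sucrose than in SN_FANS_3x500g (log2 fold change 3.06 ± 0.29, adjusted p = 0.0004). *Cd74*, the invariant chain, stood at 13.6, 28.2 and 12.1 CPM against 103, 133 and 97 CPM (2.63 ± 0.29, adjusted p = 0.00058), with SN_FANS_3x500g replicate 2 the highest of its group for both genes.

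All 6 MHC class II genes tested were higher, with a median log2 fold change of 2.53, and so were 4 of 6 MHC class I genes (median 0.94), which nearly every cell carries, where 23.9% of all genes were higher. *H2-D1* was at 81.9, 148 and 83.1 CPM in SN_FANS_3x500g and 290.2, 303 and 246 CPM in SN_sucrose (1.43 ± 0.20, adjusted p = 0.0014), and *B2m*, the light chain shared by class I molecules, at 36.5, 71 and 44.5 CPM and 107, 122 and 99.6 CPM. The SN_FANS_1x2000g libraries had 224, 260 and 258 CPM of *H2-D1* and 114, 115 and 122 CPM of *B2m*. In the SN_sucrose and SN_FANS_3x500g libraries class II transcripts were most abundant in the macrophage class. There *Cd74* was at 789.7, 1327 and 1053 CPM against 5148, 7095 and 4249.8 CPM (2.46 ± 0.25, adjusted p = 3.7e-05), a difference in the sums of that class. The complement gene *C1qa*, named after its values were seen, moved likewise in that class, from 93.6, 134 and 188 CPM to 754, 1062 and 508 CPM (2.58 ± 0.30, adjusted p = 0.00015). *Cd74* and *C1qa* were both among the markers that named the class. Of the nuclei in its cluster over all 9 libraries 24.3% were marked doublets, and without doublets its called genes went from 194 to 95. The part of a different mix of nuclei within the class was not tested.

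Low levels of *Cd74* also differed in nuclei of other kinds. It was at 53.6, 117 and 23.2 CPM against 186, 301 and 177 CPM in the endothelial class (1.74 ± 0.30), at 5.91, 7 and 4.02 CPM against 32.6, 38 and 33.5 CPM in the thick ascending limb (2.62 ± 0.19) and at 5.86, 12.3 and 4.97 CPM against 28.3, 32.9 and 31.2 CPM in the proximal tubule (1.99 ± 0.26). *Cd74* was called higher in 10 of 10 classes in which it was tested. A gene can pass the filter on low counts through the libraries of 1 protocol alone, so this count depends on the filter. No MHC class II gene passed it in macula densa, mural and mesangial, podocyte, type A intercalated or urothelial nuclei. Free RNA can give such counts in nuclei that do not make a transcript, and its part was not tested. Over all nuclei, 8 of 9 macrophage markers (65.6 to 95.0 against 203 to 263 CPM in sum), 11 of 12 endothelial markers (934 to 1419 against 1823 to 1946 CPM) and 10 of 11 fibroblast markers (97.7 to 189 against 315 to 359 CPM) were higher in SN_sucrose, beside 23.9% of all genes. The other macrophage marker was lower. The macrophage sum includes 2 MHC class II genes given above, *Cd74* (103, 133 and 97 CPM in SN_sucrose) and *H2-Ab1* (5.76, 12.8 and 5.58 against 41.5, 49.7 and 37.7 CPM). They took a large part of it in SN_sucrose. T cell markers summed to 32.2 to 37.3 against 25.1 to 34.3 CPM, B cell markers to 3.08 to 3.29 against 5.85 to 6.89 CPM, NK cell markers to 0 to 1.45 against 3.14 to 4.32 CPM, and neutrophil markers stayed at or under 1.54 CPM in all 6 libraries.

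Of 29 immediate-early genes tested, 18 were higher in SN_sucrose and none lower at that threshold, with a median log2 fold change of 0.70 (0.03 over all genes, 23.9% of which were called higher). *Btg2*, an antiproliferative gene induced by growth and stress signals, was at 52.7, 32.6 and 34.6 CPM in the SN_FANS_3x500g libraries and 114, 116 and 101 CPM in the SN_sucrose libraries (1.45 ± 0.20, adjusted p = 0.0012), with 73.9, 45.4 and 65.2 CPM in SN_FANS_1x2000g. *Fos*, a subunit of the transcription factor AP-1, was at 13.3, 11.4 and 11.7 CPM against 35, 35.2 and 21.1 CPM (1.32 ± 0.20, adjusted p = 0.0019), and at 19.8, 9.59 and 13.2 CPM in SN_FANS_1x2000g. For both genes all SN_sucrose libraries lay above all SN_FANS_3x500g libraries. Low levels also separated *Fosb* (1.38 to 1.48 against 2.45 to 5.28 CPM, 1.47 ± 0.28) and *Socs3*, a feedback inhibitor of cytokine signalling (0.441 to 0.953 against 1.57 to 2.07 CPM, 1.49 ± 0.30). Among the 11 members that did not pass were *Myc* (log2 fold change -0.38), *Gadd45a* (-0.01), *Zfp36* (0.06) and *Dusp1* (0.17), which are named here after their values were seen.

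The promoters of these genes were searched, on both strands, for the letters TGACGT, which begin the cAMP response element to which CREB binds. Of the 18 immediate-early genes called higher, 15 were searched in the RefSeq table of promoters (GRCm38.p6, 250 bases before the start), and of these *Btg2* and *Fos* held the letters, against 7.29% of 27025 genes in that table. The matches, which are descriptions and not shown binding sites, lie in these 30-base windows, with the letters in capitals.

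Btg2 (chr1:134079304-134079333, minus strand): tgttcccaataaTGACGTcagtgagcgatg

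Fos (chr12:85473812-85473841, plus strand): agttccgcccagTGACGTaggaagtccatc

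The window of *Btg2* begins its match 166 bases before the start of the gene and that of *Fos* 66 bases before it.

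By class, *Btg2* was called higher in 12 of 15 classes and *Fos* in 3 of 7. Principal nuclei of the collecting duct had 215, 78.8 and 152 CPM of *Btg2* in SN_FANS_3x500g and 924, 866 and 448 CPM in SN_sucrose (2.47 ± 0.27, adjusted p = 1.3e-05), the largest change of this gene in any class. Type B intercalated nuclei, which secrete bicarbonate, had 435, 325 and 341 CPM against 1290.0, 847 and 785 CPM (1.57 ± 0.18, adjusted p = 8.4e-05). In proximal tubule nuclei the gene stayed low, at 5.61, 5.11 and 3.97 CPM and 10.3, 10.8 and 11.6 CPM (1.14 ± 0.15, adjusted p = 0.0013). *Fos* was higher in principal nuclei (66.8, 9.85 and 14.3 against 100.1, 133 and 63.8 CPM, 1.83 ± 0.41) and in both kinds of intercalated nuclei, and in the proximal tubule it was at 1.07, 0.913 and 0.662 CPM against 1.06, 1.86 and 1.54 CPM (0.74 ± 0.31, adjusted p = 0.099). Of the whole list, 12 of 19 genes tested were higher in type B intercalated nuclei (7.74% of all genes there), 11 of 20 in principal (10.1%), 10 of 21 in proximal tubule (18.8%), 7 of 20 in endothelial (10.4%) and 0 of 9 in macrophage nuclei (2.12%).

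**Figure D2:**
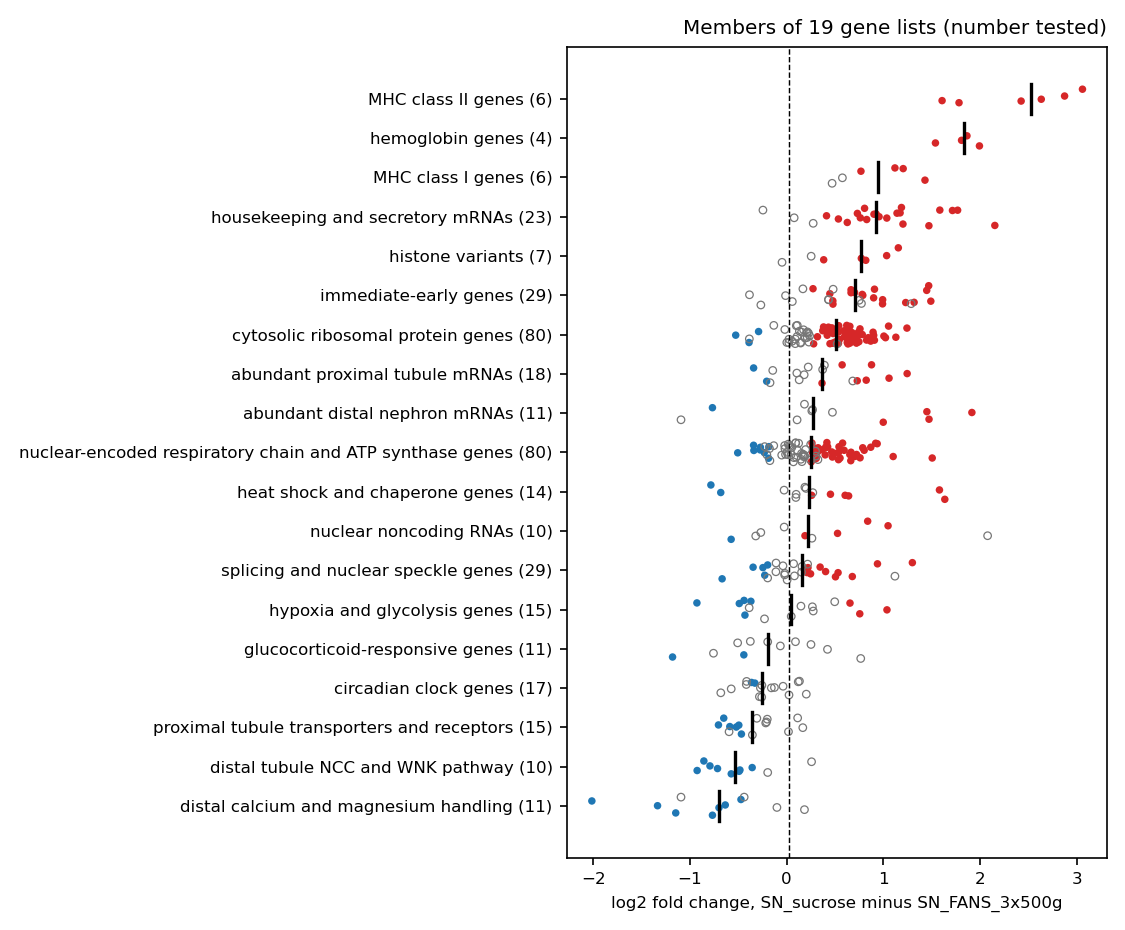
Log2 fold change of each tested member of 19 gene lists in the sums over all nuclei (red or blue points: called higher or lower in SN_sucrose, open points: not called), with the median of each list (black bar) and of all genes (dashed line at 0.03). The MHC class II list has the highest median, at 2.53, and the list of calcium and magnesium handling the lowest, at -0.70.

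Abundant mRNAs of housekeeping and secretion were higher in SN_sucrose. Of 23 housekeeping and secretory genes tested, 20 were higher in SN_sucrose (23.9% of all genes) and 0 lower (median 0.93). *Cst3*, which codes for the secreted protease inhibitor cystatin C, was at 35.9, 45.7 and 34.5 CPM in SN_FANS_3x500g and 169.9, 197 and 149 CPM in SN_sucrose (2.15 ± 0.12, adjusted p = 0.00017), and at 175, 168 and 189.7 CPM in SN_FANS_1x2000g. *Apoe*, the lipid carrier apolipoprotein E, was at 59.5, 78.2 and 55.9 CPM against 246, 241 and 172 CPM (1.77 ± 0.16), *Ctsl*, a lysosomal protease, at 25.7, 29.7 and 21.6 CPM against 80.7, 102 and 70.1 CPM (1.71 ± 0.15), and *Cd81*, a membrane tetraspanin, at 54, 67.4 and 52.3 CPM against 187, 189.6 and 145 CPM (1.58 ± 0.12). These 4 did not overlap between SN_FANS_3x500g and SN_sucrose, as was the case for 55.8% of all genes. The SN_FANS_1x2000g libraries had 210, 230 and 237 CPM of *Apoe*, 92.9, 91.4 and 99.5 CPM of *Ctsl* and 188, 186 and 195 CPM of *Cd81*. The change of *Cst3* was seen in nuclei with low and with high levels, with 18.4 to 22.7 against 76.2 to 89.6 CPM in the proximal tubule (1.95 ± 0.099) and 202 to 333 against 1144 to 1769.9 CPM in macrophages (2.53 ± 0.24).

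Of 80 cytosolic ribosomal protein genes tested, 52 were higher and 3 lower (median 0.51), against 23.9% higher and 21.4% lower among all genes. *Rpl6* was at 16.5, 18.2 and 15.5 CPM against 39.4, 41.4 and 38.3 CPM (1.24 ± 0.067, adjusted p = 0.00013), and *Rps3* at 28, 31.3 and 29.7 CPM against 63.8, 68.9 and 52.4 CPM (1.05 ± 0.10). *Rpl6* was at 24.9, 26.4 and 29.8 CPM in SN_FANS_1x2000g, between the other two protocols, and *Rps3* at 68.3, 65.1 and 76 CPM. Of 80 nuclear-encoded genes of the respiratory chain and ATP synthase, 36 were higher and 8 lower (median 0.25), read against the same shares of all genes. In the quartile of genes with the shortest span, given further on, 38.9% were higher and 7.69% lower, with a median of 0.32. *Atp5a1*, the alpha subunit of ATP synthase, was at 133, 155 and 122 CPM against 302, 284 and 295 CPM (1.10 ± 0.076, adjusted p = 0.00026). *Cox4i2*, a tissue-specific subunit of cytochrome oxidase, was low, at 0.922, 0.822 and 0.881 CPM against 1.67, 4.64 and 1.11 CPM, and its log2 fold change of 1.50 became 0.66, no longer called, without SN_sucrose replicate 2. Among the other libraries, only leaving out SN_sucrose replicate 3 kept the call. Ribosomal protein genes have many near-identical pseudogene copies that share reads with them, so single members are uncertain.

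Of 10 RNAs tested from the list of nuclear noncoding RNAs, 4 were higher and 1 lower, the latter a share under the 21.4% of all genes that were lower (23.9% were higher). *Malat1*, a long noncoding RNA of nuclear speckles, took 112088, 97386 and 100018 CPM in SN_FANS_3x500g and 182015, 183655 and 190984 CPM in SN_sucrose (0.84 ± 0.12, adjusted p = 0.0015), with 152043, 140268 and 152097 CPM in SN_FANS_1x2000g. *Snhg11*, a noncoding host of small nucleolar RNAs, was at 567, 781 and 578 CPM against 1429.7, 1219 and 1331 CPM (1.05 ± 0.11, adjusted p = 0.00054) and at 679, 899 and 829.6 CPM in SN_FANS_1x2000g. *Kcnq1ot1*, an imprinted antisense RNA, was lower over all nuclei, at 544, 499 and 509.7 CPM against 340.1, 352 and 357 CPM (-0.57 ± 0.075, adjusted p = 0.0011). By class it was lower in 7 and higher in 3. It fell in the proximal tubule (-0.69 ± 0.081, adjusted p = 0.00078) and rose in type A intercalated nuclei, from 315, 289.7 and 284 to 551, 531 and 450.2 CPM (0.88 ± 0.13, adjusted p = 0.0015).

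Of 29 genes of splicing and nuclear speckles, 11 were higher and 5 lower, where 23.9% of all genes were higher and 21.4% lower. *Pnn*, a speckle protein of the splicing machinery, was at 111, 134 and 123 CPM in SN_FANS_3x500g, 298, 294 and 316 CPM in SN_sucrose and 116, 129.8 and 123 CPM in SN_FANS_1x2000g. It was 2.46-fold higher in SN_sucrose than in SN_FANS_3x500g (1.30 ± 0.064, adjusted p = 0.00013) and was called in all 15 classes. The splicing factor *Srsf7* was higher (127, 153 and 136 against 263, 269.8 and 267 CPM, 0.94 ± 0.058) and its relative *Srsf6* lower (125, 130.5 and 122 against 83, 77.9 and 78 CPM, -0.67 ± 0.056), each without overlap. Of 7 histone variant genes, which make polyadenylated mRNA, 5 were higher (median 0.77), among them *H3f3b* at 149, 141 and 129 CPM against 256, 373 and 308 CPM (1.15 ± 0.14, adjusted p = 0.00078).

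Of 18 abundant mRNAs of the proximal tubule tested over all nuclei, 7 were higher (23.9% of all genes), 2 lower (21.4%) and 9 not called (median 0.37). Within proximal tubule nuclei 8 of 18 were higher and 1 lower, where 18.8% of all genes were higher and 17.3% lower. Within endothelial nuclei 9 of 16 were higher and 0 lower, where 10.4% of all genes were higher. *Kap*, an androgen-regulated protein of the proximal tubule, was at 369, 288 and 306 CPM in SN_FANS_3x500g, 787, 828 and 683 CPM in SN_sucrose (1.25 ± 0.13, adjusted p = 0.00054) and 2174, 1466 and 1974 CPM in SN_FANS_1x2000g. *Tmem27*, the transporter partner collectrin, was at 145, 147 and 162 CPM against 328, 344 and 277 CPM (1.06 ± 0.10, adjusted p = 0.00039), and *Miox*, which breaks down inositol, at 316, 467 and 360.2 CPM against 800.4, 546 and 674 CPM (0.82 ± 0.16). The lower members were *Calml4* (-0.34) and *Fxyd2* (-0.21), a regulatory subunit of the sodium pump, both named after their values were seen.

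In nuclei outside the proximal tubule class these mRNAs took 0.220, 0.216 and 0.190% of UMIs in SN_FANS_3x500g and 0.309, 0.321 and 0.260% in SN_sucrose, 1.42 times as much (exact two-sided permutation test, p = 0.1, the smallest possible). In the endothelial class, which does not form tubules, they took 0.230, 0.239 and 0.195% against 0.399, 0.404 and 0.334%, 1.71 times as much (exact two-sided permutation test, p = 0.1). In the SN_FANS_1x2000g libraries the endothelial share was 1.07, 0.811 and 0.987%. In the proximal tubule itself the share was 0.700, 0.714 and 0.700% against 0.987, 0.968 and 0.896%. Abundant mRNAs of the distal nephron showed the same order in proximal tubule nuclei, at 0.0912, 0.116 and 0.0893% against 0.170, 0.166 and 0.160%. The median depth of nuclei in these libraries overlapped, as given above.

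By class, the share did not overlap between the protocols in 10 of the 15 classes. The ratio was largest in urothelial (2), principal (1.79) and endothelial nuclei (1.71) and smallest in macrophage (1.11), connecting tubule (1.14) and distal convoluted tubule nuclei (1.18). In endothelial nuclei *Kap* was at 229.7, 226 and 202 CPM against 1061, 1102 and 919.6 CPM (2.24 ± 0.11, adjusted p = 1.8e-10), and in proximal tubule nuclei at 556, 425 and 448 CPM against 871, 949 and 779.6 CPM (0.84 ± 0.13, adjusted p = 0.0025). In SN_sucrose its level in endothelial nuclei was thus above that in proximal tubule nuclei in each library, whereas in SN_FANS_3x500g it was below it. With *Kap* left out of the list, the share outside the proximal tubule class was 0.206, 0.204 and 0.179% against 0.240, 0.251 and 0.204%, a ratio of 1.18 with overlapping groups (exact two-sided permutation test, p = 0.3). In endothelial nuclei the list without *Kap* took 0.207, 0.216 and 0.175% against 0.293, 0.293 and 0.242%, a ratio of 1.38 without overlap (exact two-sided permutation test, p = 0.1).

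**Figure D3:**
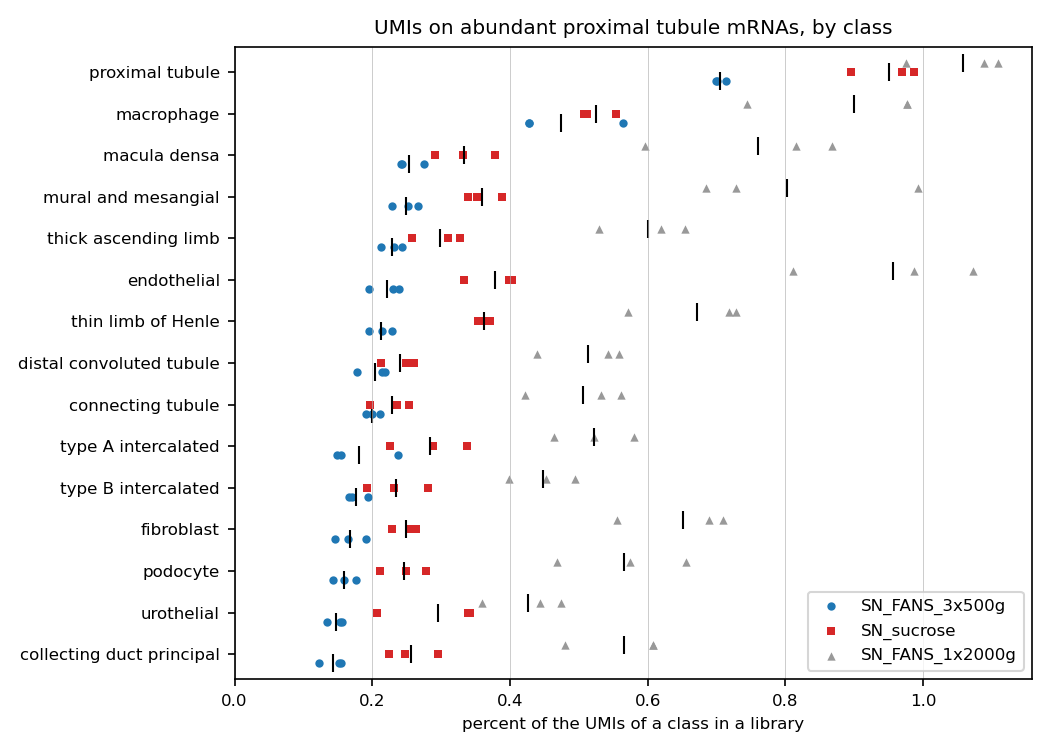
Percent of the UMIs of a class that fell on abundant proximal tubule mRNAs, for each of 9 libraries (points, 3 per protocol) with protocol means (black bars). In the endothelial class the SN_FANS_3x500g libraries lie between 0.195 and 0.239%, the SN_sucrose libraries between 0.334 and 0.404% and the SN_FANS_1x2000g libraries between 0.811 and 1.07%.

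Of 11 abundant distal nephron mRNAs, 4 were higher (23.9% of all genes) and 1 lower (21.4%), with a median of 0.27 (0.62 without SN_FANS_3x500g replicate 1). *Spp1*, which codes for osteopontin, was at 138, 142 and 125 CPM in SN_FANS_3x500g, 509, 529.8 and 492 CPM in SN_sucrose (1.91 ± 0.069, adjusted p = 9.1e-05) and 674, 579 and 677 CPM in SN_FANS_1x2000g, and was called in all 15 classes. *Klk1*, the kallikrein of the connecting tubule, was at 94, 117 and 72.2 CPM against 246, 271 and 269.6 CPM (1.47 ± 0.14). The lower member, *Egf*, the epidermal growth factor of the thick limb and distal tubule, was at 2024, 2297 and 2419 CPM against 1267, 1218 and 1491 CPM (-0.77 ± 0.099, adjusted p = 0.001). Its neighbour in expression *Umod*, named after its values were seen, moved the other way within thick ascending limb nuclei, from 2527, 2217 and 1780.0 to 3092, 4249 and 3092 CPM (0.70 ± 0.14, adjusted p = 0.0013), where *Egf* went from 10147, 11711 and 13354 to 7716, 7889.9 and 9201 CPM (-0.48 ± 0.12, adjusted p = 0.0053).

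Genes listed for transport in the distal convoluted tubule were lower in SN_sucrose, in that class and in others. In the pathway around the thiazide-sensitive cotransporter NCC, 8 of 10 genes tested were lower and 0 higher (median -0.53, against 21.4% of all genes called lower). *Slc12a3*, the cotransporter itself, was at 1779, 1795 and 1734 CPM in SN_FANS_3x500g and 935, 942 and 1203 CPM in SN_sucrose (-0.79 ± 0.11, adjusted p = 0.0011). The kinase *Wnk4*, which switches it on, was at 186, 153 and 153 CPM against 95.4, 82.2 and 96.1 CPM (-0.86 ± 0.11), *Klhl3*, which marks WNK kinases for degradation, at 256, 202 and 245 CPM against 124, 123 and 126 CPM (-0.93 ± 0.11), and the ubiquitin ligase *Nedd4l* at 1209, 1004 and 1081 CPM against 677, 678 and 667 CPM (-0.71 ± 0.099). The SN_FANS_1x2000g libraries had 1005, 1221 and 953 CPM of *Slc12a3* and 108, 100 and 79.8 CPM of *Wnk4*. They had 157, 149 and 146 CPM of *Klhl3* and 913, 834 and 775 CPM of *Nedd4l*. The sums of these genes in SN_sucrose moved together with the smaller share of distal convoluted tubule nuclei, whose part in them was not tested. Genes of the list were also lower in other classes, 7 of 10 in proximal tubule (17.3% of all genes there), 6 of 9 in endothelial (7.58%) and 6 of 10 in thick ascending limb nuclei (18.1%). In the latter 1 was higher (20.7%). In principal nuclei 1 of 10 was lower (6.38%) and 1 higher (10.1%). Within the distal convoluted tubule *Slc12a3* was at 23052, 24398 and 22668 CPM against 15665, 14596 and 17571 CPM (-0.40 ± 0.11, adjusted p = 0.016) and *Klhl3* at 2055, 1642 and 1865 CPM against 942, 914 and 917 CPM (-0.86 ± 0.11, adjusted p = 0.00012), and 6 of 9 genes of the list were lower (10.4% of all genes in that class). *Slc12a3* and *Klhl3* were among the 7 markers that named this class, of which 4 were lower in it and 0 higher.

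Of 11 genes of distal calcium and magnesium handling, 7 were lower (21.4% of all genes) and 0 higher (median -0.70). *Trpm6*, the magnesium channel, was at 124, 81.9 and 132 CPM against 40.8, 42.8 and 51.9 CPM (-1.33 ± 0.20, adjusted p = 0.0018), and within the distal convoluted tubule at 1620.4, 1161 and 1769.9 CPM against 564, 597 and 667 CPM (-1.17 ± 0.15, adjusted p = 8e-05). *Slc8a1*, the sodium-calcium exchanger, was at 4049, 2099.8 and 2871 CPM against 1276, 1082 and 1776 CPM (-1.15 ± 0.28, adjusted p = 0.012). In the connecting tubule, where it is most abundant, it was at 83898, 53525 and 74159 CPM against 30604, 30800.0 and 37092 CPM (-1.02 ± 0.20, adjusted p = 0.00074). *Trpm6* and *Slc8a1* were among the markers that named the distal convoluted tubule and the connecting tubule, respectively. Over all nuclei of SN_FANS_1x2000g *Trpm6* was at 80.7, 62 and 79.4 CPM and *Slc8a1* at 2871, 1408 and 1724 CPM. *Cyp24a1*, which inactivates vitamin D, was called lower at 27.2, 11.8 and 91.4 CPM against 6.81, 13.3 and 12.6 CPM (-2.01 ± 0.70, adjusted p = 0.047), but the groups overlapped and the change was -0.86, no longer called, without SN_FANS_3x500g replicate 3. The call was also lost without any 1 SN_sucrose library and in the fit of all 9 libraries (adjusted p = 0.061, edgeR).

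Some transcripts of distal tubules were also lower in nuclei of other classes. *Slc8a1* was at 776, 214 and 243 CPM against 64.7, 43.8 and 76.1 CPM in endothelial nuclei (-2.71 ± 0.36) and at 183, 60.8 and 79.3 CPM against 16.8, 14.1 and 21.8 CPM in proximal tubule nuclei (-2.66 ± 0.41). *Slc12a3* was at 689, 447 and 846 CPM against 33.3, 106 and 96.6 CPM in fibroblast nuclei (-3.03 ± 0.27). *Erbb4*, a receptor kinase most abundant in the thick limb class, was at 13535, 13761 and 13897 CPM against 9710.1, 9126 and 9048 CPM there (-0.54 ± 0.096) and at 525, 360.4 and 509 CPM against 76.7, 154 and 93.9 CPM in endothelial nuclei (-2.09 ± 0.19). In mural and mesangial nuclei *Slc12a3* went the other way, from 149, 69 and 60.3 to 446, 251 and 285 CPM (1.90 ± 0.34, adjusted p = 0.011). The part of free RNA in these levels was not tested.

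Of 15 proximal tubule transporters and receptors, 6 were lower (21.4% of all genes) and 0 higher (median -0.35). Without SN_FANS_3x500g replicate 3, or without SN_sucrose replicate 1, only 2 members were called, a share under that of all genes. *Cubn*, the endocytic receptor cubilin, was at 758, 626 and 655 CPM against 428, 436 and 397 CPM (-0.71 ± 0.10, adjusted p = 0.0017), and *Slc4a4*, the basolateral bicarbonate cotransporter, at 1560.2, 1259 and 1622 CPM against 1039, 1147 and 934 CPM (-0.52 ± 0.14, adjusted p = 0.016). *Slc13a3* and *Slc22a12*, carriers of dicarboxylates and urate, were called lower at adjusted p = 0.026 and 0.035, and neither call held without SN_FANS_3x500g replicate 3 or SN_sucrose replicate 1. That of *Slc4a4* did not hold without these libraries or SN_sucrose replicate 3, that of *Slc13a3* without replicate 2 of either protocol, and that of *Slc22a12* without SN_FANS_3x500g replicate 1 or SN_sucrose replicate 3. *Slc34a1*, the phosphate cotransporter, had a log2 fold change of 0.02 ± 0.066, and *Slc5a2*, the glucose cotransporter, of 0.17 ± 0.084; these 2 were named after their values were seen. In proximal tubule nuclei alone 7 of 15 members were lower (17.3% of all genes there) and 0 higher. Several members of the list, such as *Cubn*, were among the markers that named that class. *Cubn* (215476 bases) and *Slc4a4* (352836 bases) lie in the longest quartile of gene span, given further on, where 39.7% of genes were lower over all nuclei. *Slc22a12* (7188 bases) lies in the shortest.

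Of 14 heat shock and chaperone genes, 6 were higher and 2 lower, the latter a share under the 21.4% of all genes that were lower (23.9% were higher). *Hsp90ab1*, a constitutive chaperone, was at 25.9, 30.5 and 27 CPM against 88.3, 97.2 and 74.1 CPM (1.63 ± 0.10, adjusted p = 0.0002), while the stress-inducible *Hspa1b* (5.43, 5.06 and 4.15 against 3.54, 2.8 and 2.83 CPM, -0.68 ± 0.16) and *Hsph1* (30.8 to 40.2 against at most 23.5 CPM, -0.78 ± 0.14) were lower. *Hspb1*, also stress-inducible, was higher, at 1.78, 2.47 and 2.13 against 6.31, 7.61 and 5.13 CPM (1.58 ± 0.18). Of 15 hypoxia and glycolysis genes, 3 were higher and 5 lower, the former a share under the 23.9% of all genes. *Vegfa*, the vascular growth factor, was lower at 315, 341 and 300.4 CPM against 172, 168 and 164 CPM (-0.93 ± 0.058, adjusted p = 0.00019) and in 10 of 15 classes, and *Slc2a1*, the glucose transporter GLUT1, was higher at 23.1, 27.4 and 20.5 CPM against 41.6, 41.7 and 36.7 CPM (0.76 ± 0.097).

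Of 11 glucocorticoid-responsive genes 2 were lower, a share under the 21.4% of all genes, *Zbtb16* (46.7, 25.5 and 32 against 13.9, 21.9 and 10.7 CPM, -1.18 ± 0.31) and *Tsc22d3* (34.6, 27.7 and 27.7 against 23.5, 21.6 and 21.6 CPM, -0.44 ± 0.12), and both calls were lost without SN_sucrose replicate 3, that of *Zbtb16* also without replicate 1 and that of *Tsc22d3* without replicate 2. Of 17 circadian clock genes 2 were lower, *Rora* (-0.36 ± 0.08) and *Hlf* (-0.33 ± 0.095), and 0 higher, again a share under that of all genes. The call of *Hlf* was lost without replicate 2 of either protocol or SN_FANS_3x500g replicate 3. All 4 hemoglobin genes, whose mRNA comes from red blood cells, were higher (median 1.84), as were 23.9% of all genes. *Hba-a1* was at 4.41, 3.12 and 1.29 CPM against 11.4, 10.3 and 9.6 CPM (1.81 ± 0.34, adjusted p = 0.004) and at 11.3, 28.1 and 11.1 CPM in SN_FANS_1x2000g. *Hbb-bs* was at 16.3, 11 and 2.53 CPM against 29.5, 33.6 and 24.6 CPM, with an adjusted p of 0.035 that rose above 0.05 without SN_FANS_3x500g replicate 2 or any 1 SN_sucrose library, and was 0.072 with DESeq2. The near-identical alpha and beta globin copies share reads and cannot be separated with certainty.

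Some large differences came with a wide spread between libraries of a protocol. *Trim5*, an antiviral factor with close paralogs, had the largest rise of the genes at 20 CPM or more, from 6.81, 6.38 and 0.514 CPM in SN_FANS_3x500g to 89.2, 43.8 and 91.9 CPM in SN_sucrose (4.01 ± 0.60, adjusted p = 0.0018). In SN_FANS_1x2000g it was at 16.6, 16.5 and 0.597 CPM, again with 1 library near 0.6 CPM. *Mnd1*, a meiotic recombination gene, was at 6.65, 20.1 and 33.5 CPM in SN_FANS_3x500g, 4.93, 4.41 and 8.53 CPM in SN_sucrose and 5.43, 16.9 and 27.4 CPM in SN_FANS_1x2000g, and the first 2 groups overlapped. *Erdr1*, which lies in the region shared by the X and Y chromosomes, ranged from 366 to 742 CPM in SN_FANS_3x500g and from 136 to 367 CPM in SN_sucrose. The calls of *Mnd1* and *Erdr1* were lost without SN_FANS_3x500g replicate 3, at log2 fold changes of -1.15 and -0.98, without SN_sucrose replicate 1 or 2, and without SN_FANS_3x500g replicate 2 (*Mnd1*) or 1 (*Erdr1*). In SN_FANS_1x2000g *Erdr1* was at 376, 258 and 629 CPM, beside 541, 366 and 742 CPM in SN_FANS_3x500g, and *Cyp24a1* at 23, 10.9 and 62.4 CPM, beside 27.2, 11.8 and 91.4 CPM. For these 4 genes, named together after their values were seen, the libraries of both sorted protocols stood in the same order when listed by accession. The SN_sucrose libraries stood in that order too for *Erdr1* (190, 136 and 367 CPM), but not for *Trim5*, *Mnd1* and *Cyp24a1*. Whether libraries of different protocols share mice is not given in the sources used here, and variation between mice and the effect of the protocol cannot be told apart.

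Other genes with large falls follow. *Mrps6*, a mitochondrial ribosomal protein gene, was at 208, 151 and 161 CPM against 82.1, 65.6 and 79.3 CPM (-1.21 ± 0.15, adjusted p = 0.00098), and *Lgals4*, a galectin, at 26.3, 40.4 and 46.3 CPM against 14, 15.2 and 17.3 CPM (-1.28 ± 0.19). The uncharacterized genes *Gm15848* (31.7, 30.9 and 33.6 against 14.5, 14.8 and 13 CPM, -1.19 ± 0.085), *Gm29266* (-1.21 ± 0.16) and *Gm2115* (-1.48 ± 0.30) were lower too. None of the 5 overlapped between the protocols, as was so for 55.8% of all genes.

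In the proximal tubule 2799 of 14864 genes were higher and 2570 lower (36.1% called), in the thick ascending limb 2519 and 2203 of 12191 (38.7%), and in endothelial nuclei 1105 and 808 (7.58%) of 10654 (18% in all). The smallest counts were in urothelial nuclei, with 53 higher and 16 lower of 3448 (2%), and in mural and mesangial nuclei, with 45 (1.37%) and 28 of 3287 (2.22% in all). Among distal segments, 1114 and 1011 of 9684 genes were called in the distal convoluted tubule (21.9%), 952 (11.5%) and 805 (9.76%) of 8252 in the connecting tubule (21.3%), and 880 and 557 of 8729 in principal nuclei (16.5%). Type B intercalated nuclei had 595 and 385 of 7692 (5.01% lower), type A 502 (7.42%) and 283 (4.18%) of 6764, and the thin limb 538 (7.79%) and 396 (5.73%) of 6905. Few genes were called in podocytes, 131 (4.42%) and 37 of 2962 (5.67% in all), in the macula densa, 74 and 22 (0.948%) of 2320 (4.14% in all), in macrophages, 114 and 80 of 5374 (3.61%), and in fibroblasts, 91 and 106 of 8561 (2.3%). Across classes 4093 genes were higher in at least 1, 768 in at least 5 and 96 in at least 10, and 3780, 561 and 22 were lower. In 63 genes the direction differed between classes. With a stricter rule after the study's own thresholds, which asks for detection in at least 0.5 of nuclei and a difference of 0.5 on its log scale, 15 to 42 genes were called per class, except that 7 were called in fibroblasts, and 213 genes in any class.

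Of the genes called in the most classes, 7 were higher in all 15: *Kap*, *Cst3*, *Spp1*, *Pnn*, *Itm2b*, a membrane protein processed by furin, *Cyba*, a subunit of NADPH oxidases, and *Lamp1*, a lysosomal membrane protein. *Itm2b* was at 165, 174 and 148 CPM against 466, 468 and 422 CPM over all nuclei (1.47 ± 0.076, adjusted p = 0.00013) and *Lamp1* at 74.1, 83.5 and 75.3 CPM against 163, 165 and 142 CPM (1.01 ± 0.073). Of the genes lower in most classes, *P3h2*, a collagen hydroxylase, was called in 13 classes and was at 1646, 1624 and 1836 CPM against 974, 936 and 1041 CPM (-0.80 ± 0.086, adjusted p = 0.00056). *Erbb4*, *Slc8a1* and *Esrrg*, an orphan nuclear receptor, were called in 12 classes each, and *Pkhd1*, the gene of recessive polycystic kidney disease, *Ank3*, *Galnt18* and *Fam193b* in 11. *Esrrg* was called in 7 classes without replicate 3 of either protocol, and *Pkhd1* in 7 without SN_sucrose replicate 3. *Esrrg* was at 4423, 4148 and 4544 CPM against 2750.4, 2613 and 2539 CPM (-0.74 ± 0.086) and *Galnt18* at 816, 671 and 749 CPM against 356, 356 and 358 CPM (-1.07 ± 0.10).

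**Figure D4:**
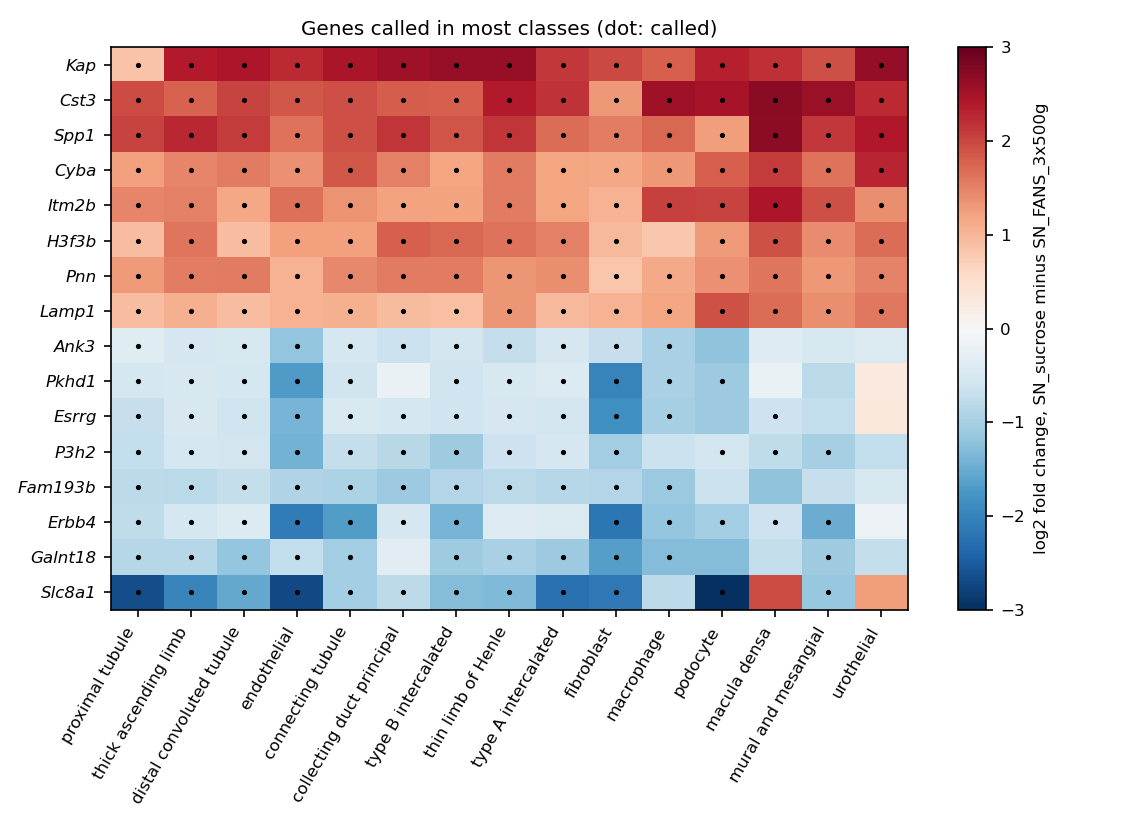
Log2 fold change (SN_sucrose minus SN_FANS_3x500g, colour) of the 16 genes called in most classes, in the sums of each of 15 classes, with a dot where the gene was called. The 8 upper genes have positive values in all 15 classes, and among the 8 lower genes *Erbb4* reaches -2.17 in fibroblast and -2.09 in endothelial nuclei.

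The difference of the protocol effect between classes was itself tested within libraries (limma, genes at 20 CPM or more in both classes). Only the proximal tubule against endothelial and against thick ascending limb nuclei were compared. A gene that did not pass cannot be read as having the same effect in both classes. Between proximal tubule and endothelial nuclei 143 of 5598 genes (2.55%) differed, of which 45 had estimates of opposite sign. Neither estimate had to be called for this count, and some were small, as for *Ubb* (-0.014 in proximal tubule and 1.15 in endothelial nuclei). Between proximal tubule and thick ascending limb nuclei 35 of 5895 (0.594%) differed, 18 of them with estimates of opposite sign. *Erbb4* fell more in endothelial nuclei (-2.13) than in proximal tubule nuclei (-0.77), a difference of 1.36 ± 0.19 (SE, adjusted p = 0.0028, limma), and *Pkhd1* likewise (-1.70 against -0.52, difference 1.19 ± 0.16). *Kap* rose more in endothelial (2.22) and thick ascending limb nuclei (2.35) than in proximal tubule nuclei, with differences of -1.35 ± 0.11 and -1.48 ± 0.082.

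Genes that span little of the genome were called higher more often than lower, and those with a long span lower more often than higher, although most genes at either end did not pass in that direction. Span counts from the start to the end of a gene and was known for 96.2% of the genes tested. In the shortest quartile, up to 10.0 kb, 38.9% of genes were higher and 7.69% lower in SN_sucrose, with a median log2 fold change of 0.32. In the longest quartile, from 60.4 kb, 11.7% were higher and 39.7% lower, with a median of -0.18. Across genes, which are not independent replicates and share these libraries, Spearman's rho of span and log2 fold change was -0.344. It was -0.367 in proximal tubule, -0.468 in thick ascending limb and -0.504 in endothelial nuclei, so the relation was also present within classes. Intronic reads were counted in these libraries. The lower genes named above include several with long spans, such as *Ank3* with 628666 bases. The gene lists above were read against all genes and not against genes of like span. The part of span in their counts and medians was not tested.

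By gene type, 345 of 1107 antisense genes were higher (31.2%) and 75 lower (6.78%), and of 40 processed pseudogenes tested 22 were higher and 2 lower, beside 23.9% and 21.4% of all genes. Reads of pseudogenes can come from their parent genes, and the sources used here do not state how strand was treated in counting, so these types are uncertain.

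**Figure D5:**
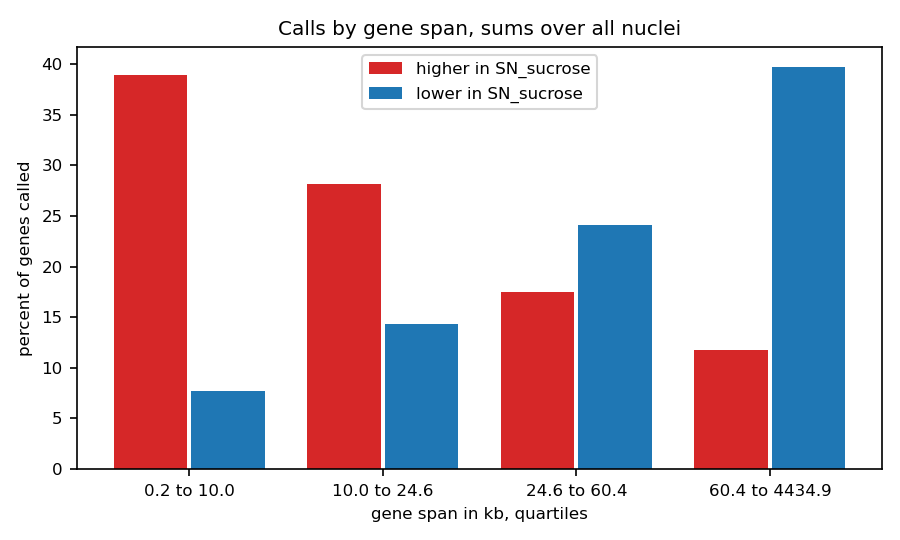
Percent of genes called higher (red) or lower (blue) in SN_sucrose, in quartiles of gene span in kb, for the sums over all nuclei. From the shortest to the longest quartile the share called higher goes from 38.9 to 11.7% and the share called lower from 7.69 to 39.7%.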

How the data were processed

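Droplet libraries (10x Genomics, version 3 chemistry) of nuclei from frozen kidneys of 15-week female Balb/c mice were compared between SN_sucrose and SN_FANS_3x500g, 3 libraries each. The labels carry no replicate numbers, which were given in accession order. The counts deposited by the authors are UMI counts per gene and nucleus, not normalized, from reads mapped to mm10, with intronic reads counted, empty droplets and outlying nuclei removed and mitochondrial genes left out. The submitters' processing notes name Cell Ranger 2.1.1, STAR 2.6.1a and Seurat 2. The files held 26142380 to 30416400 UMIs per library, and all intervals and p-values rest on 3 libraries per group.

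Nuclei of the 6 libraries and of 3 SN_FANS_1x2000g libraries were clustered together (scanpy 1.11.5, 2000 variable genes, 30 principal components, 20 neighbours, Leiden resolution 2, leidenalg 0.10.2), leaving out 362 genes, mainly members of the lists compared. The lists of proximal tubule transporters, the NCC pathway and calcium and magnesium handling were not left out, save members shared with the distal nephron mRNAs. Some of their genes also served as class markers. A cluster was named for a class when at least 3 of that class's markers led it (detected in at least 0.1 of its nuclei and 1.5-fold over the rest). Clusters mostly of marked doublets (simulated pairs, in proportion to the number of nuclei), with few UMIs, or with more markers of another class in their top 10 stayed unnamed, and the last limit was set after the clusters were seen. Marked doublets stayed in the sums.

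UMIs were summed per library and per class, and tested with edgeR 4.0.16 (quasi-likelihood test, TMM, its filter on low counts, Benjamini-Hochberg adjustment, threshold 0.05). Numbers of nuclei per class were tested with the same quasi-likelihood test and adjusted over classes. That fit was offset by the library total, without TMM factors or the filter on low counts. Differences of the effect between classes were tested with limma 3.58.1 on within-library differences. Single values were compared with exact permutation tests, which cannot go below 0.1 here. Scripts were tested on simulated data. Every p-value measures the spread between these libraries. Named genes were the 10 called genes with the largest change in each direction at 20 CPM or more, up to 4 called genes of each list (the 2 most abundant where fewer than 2 were called), and up to 8 in each direction called in most classes. Other genes are said to be named after their values were seen. The groups, lists and rules were chosen with earlier results of these data known. Alternatives were RLE factors, library totals, DESeq2 1.42.0, no filter, all 9 libraries, other clusterings and names, no doublets, and leaving out each library. The clustering without called genes was added after seeing the data. Promoters came from a RefSeq table of GRCm38.p6. The other 45 libraries were not used here.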

Additional observations from a re-analysis of the deposited data

Results flagged for a closer look

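The effect of the protocol (SN_sucrose minus SN_FANS_3x500g, log2) differed between proximal tubule and another class for 21 named results, each tested as a difference within libraries (limma, adjusted over all genes tested in that pair of classes). Genes named only here were chosen for that difference. Against endothelial nuclei, the effect in proximal tubule nuclei was lower for *Txnip*, a redox regulator (difference -1.49, adjusted p = 0.026), with -0.86 in proximal tubule and 0.63 in endothelial nuclei. It was also lower for *Kap* (-1.35), *Ece1*, an endothelin-converting enzyme (-1.21, from -0.44 against 0.77), and *Slc22a12* (-1.0). It was higher for *Egf* (0.54), *P3h2* (0.7), *Esrrg* (0.71), *Ank3* (0.86), *Pkhd1* (1.19), *Erbb4* (1.36), *Pclo* (1.57) and *Sim1* (1.6).

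Against thick ascending limb nuclei, the effect in proximal tubule nuclei was lower for *Kap* (-1.48), *Slc16a6* (-1.44), *Mecom*, a transcription factor of distal segments (-1.41), *Trim5* (-1.24) and *H3f3b* (-0.64). It was higher for *Apoe* (0.77), *Mfsd4* (1.01), *Wdr17* (1.18) and the uncharacterized *Gm13963* (1.2). When single libraries were left out, the call was lost at least once for *Txnip*, *Slc22a12*, *Egf*, *P3h2*, *Esrrg* and *Ank3* against endothelial nuclei, and for *Trim5*, *H3f3b*, *Apoe* and *Wdr17* against the thick ascending limb. The share of UMIs on abundant proximal tubule mRNAs, which include *Kap*, was 1.71 times as high in SN_sucrose in endothelial and 1.35 times in proximal tubule nuclei, and its part in these differences was not tested.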

How the results depend on the processing

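No paired analysis was possible because the labels give no replicate numbers that groups share. Over all nuclei, the other normalizations, DESeq2, no filter, all 9 libraries and no doublets gave 3590 to 4410 genes higher and 3552 to 3952 lower. Leaving out 1 library gave 3330 to 4156 higher, 2867 to 3613 lower, 614 to 971 at least 2-fold higher and 157 to 183 at least 2-fold lower. The causes of the changes below were not tested, except that the study's own thresholds and higher CPM limits admit fewer genes by construction.

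The alternatives that moved calls per class by over 1.5 times follow, and the study's thresholds did so in all 15 classes. With DESeq2 they were 660 in principal, 736 in connecting tubule, 1131 in distal convoluted tubule, 1128 in endothelial, 129 in fibroblast, 92 in macrophage, 38 in macula densa, 48 in mural, 67 in podocyte, 324 in thin limb, 274 in type A and 392 in type B intercalated nuclei. With names by marker score they were 2397 in principal, 63 in fibroblast, 2496 in macrophage, 564 in macula densa, 201 in mural, 387 in podocyte, 2164 in thin limb and 1535 in urothelial nuclei. Without a filter they were 426 in fibroblast, 418 in macrophage, 234 in macula densa, 227 in mural, 265 in podocyte and 174 in urothelial nuclei. At Leiden resolution 1 they were 350 in fibroblast and 13 in urothelial nuclei, and without doublets 95 in macrophage, 145 in mural and 35 in urothelial nuclei. With the study's thresholds they were 27 in principal, 33 in connecting tubule, 27 in distal convoluted tubule, 15 in endothelial, 7 in fibroblast, 37 in macrophage, 41 in macula densa, 20 in mural, 29 in podocyte, 16 in proximal tubule, 18 in thick ascending limb, 42 in thin limb, 29 in type A and 34 in type B intercalated and 23 in urothelial nuclei.

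Under names by marker score the calls of principal, endothelial, macula densa and thin limb nuclei were lost, and log2 changes of class numbers were -0.059 for principal, 0.14 for connecting tubule, 0.45 for endothelial, -0.24 for macula densa, -0.19 for proximal tubule, -0.21 for thin limb and 0.82 for urothelial nuclei, a call in the opposite direction. The clustering without called genes lost the endothelial, macrophage and thin limb calls and gave 0.041 for connecting tubule, 0.47 for endothelial, 0.24 for macrophage, -0.0046 for proximal tubule and -0.46 for thin limb nuclei. Connecting tubule nuclei stood at 0.087 at resolution 1, and endothelial nuclei at 0.47 with TMM factors and 0.46 among nuclei outside the proximal tubule, no longer called. DESeq2 called 4 glucocorticoid-responsive genes, and at 50 CPM the effect differed for 90 genes (endothelial) and 20 (thick ascending limb).

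Leaving out 1 library, calls per class ranged from 734 to 1461 (principal), 1143 to 1725 (connecting tubule), 1259 to 2037 (distal convoluted tubule), 1029 to 2354 (endothelial), 92 to 353 (fibroblast), 49 to 258 (macrophage), 51 to 111 (macula densa), 23 to 58 (mural), 85 to 195 (podocyte), 3607 to 5070 (proximal tubule), 3560 to 4264 (thick ascending limb), 442 to 796 (thin limb), 343 to 651 (type A), 446 to 906 (type B) and 6 to 41 (urothelial). Differing effects ranged from 47 to 117 (endothelial) and 7 to 65 (thick ascending limb). Log2 changes of numbers ranged from -0.39 to -0.29 (principal), -0.16 to 0.0046 (connecting tubule), -0.45 to -0.33 (distal convoluted tubule), 0.27 to 0.56 (endothelial), 0.56 to 1.22 (fibroblast), -0.76 to -0.12 (podocyte), -0.032 to 0.051 (proximal tubule), -0.41 to -0.32 (thick ascending limb), -0.65 to -0.37 (thin limb), 0.13 to 0.33 (mural and mesangial), -0.26 to -0.077 (type A) and 0.018 to 0.20 (type B). Called members ranged from 15 to 21 (immediate-early), 5 to 8 (distal mRNAs), 1 to 5 (clock), 1 to 5 (glucocorticoid), 2 to 6 (proximal tubule transporters), 6 to 9 (heat shock) and 5 to 8 (calcium and magnesium). The median of the distal mRNAs was 0.62 without SN_FANS_3x500g replicate 1.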
